A study of Mus musculus with 3 samples.

Results

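The genes described here are the constant-region genes of mouse immunoglobulin, the antibody molecule. They were taken by symbol and matched by Ensembl identifier: 6 heavy-chain genes (Ighg1, Ighg2b, Ighg2c, Ighg3, Ighm and Igha) and 4 light-chain genes (Igkc, Iglc1, Iglc2 and Iglc3). All 10 were found among the 30406 genes that every library was counted on, which hold 393 immunoglobulin genes in all. The genes were selected on their levels in these same libraries, so the levels and their contrasts are given as a description. Single-nucleus RNA was measured with the 10x 3′ chemistry in nuclei from whole corneas that had been snap frozen. Each of the 3 libraries pooled 5 mice. The library labelled WT came from untreated wild-type mice, and the library labelled KO from untreated mice with a knockout of Aire, the gene whose loss impairs deletion of self-reactive T cells in the thymus. The library labelled KO_PBS came from Aire knockout mice given phosphate-buffered saline (PBS) for 14 days according to its label. Age was 7 weeks in the sample labels and 6 weeks, at day 7 of treatment, in the series text. Strain and sex were not given in the sources used here. The series text also names a lacripep-treated arm, which was not analysed here.

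An antibody is built from a pair of heavy and a pair of light chains. A B cell first uses the mu heavy-chain constant gene, Ighm, and can then recombine its heavy-chain locus so that the same variable region is joined to a gamma or alpha constant gene, which is called class switching. IgG subclasses serve complement fixation and binding to Fc receptors on macrophages, IgA is the class exported across mucosal surfaces, and IgM is the first class made. Each B cell or plasma cell uses a single light chain, which in mice is far more often kappa (Igkc) than lambda (Iglc1, Iglc2, Iglc3). Plasma cells transcribe these genes at very high rates.

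All 6 heavy-chain genes lie on the minus strand of chromosome 12 (build GRCm38, which is the build also called mm10, GENCODE M21 annotation). From the mu gene toward the alpha gene these are Ighm (ENSMUSG00000076617, chr12:113418558-113422730), Ighg3 (ENSMUSG00000076615, chr12:113356224-113361232), Ighg1 (ENSMUSG00000076614, chr12:113325240-113330523), Ighg2b (ENSMUSG00000076613, chr12:113302965-113307933), Ighg2c (ENSMUSG00000076612, chr12:113285325-113288932) and Igha (ENSMUSG00000095079, chr12:113254830-113260236). Igkc (ENSMUSG00000076609) lies on the plus strand at chr6:70726435-70726966, within the longer gene Gm30211 but outside its exons. The lambda genes are on the minus strand of chromosome 16: Iglc1 (ENSMUSG00000105906, chr16:19061618-19062071), Iglc3 (ENSMUSG00000105547, chr16:19065230-19065681) and Iglc2 (ENSMUSG00000076937, chr16:19198396-19200351). Exons of Iglc3 overlap 2010309G21Rik on the other strand and those of Iglc2 overlap the joining segment Iglj2, so UMIs there are less certain. None of the 10 overlaps a gene that only some libraries were counted on.

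The 4 IgG subclasses are most unlike each other in the hinge, the short exon between the first and the second constant domain that holds the cysteines joining the heavy chains. The hinge exons are shown because they are what tells these 4 genes apart as proteins. They lie at chr12:113329844-113329882 (Ighg1), chr12:113307261-113307326 (Ighg2b), chr12:113288263-113288325 (Ighg2c) and chr12:113360529-113360576 (Ighg3), and are written 5′ to 3′ on the minus strand. Capitals mark the in-frame TGT and TGC triplets, which encode cysteine.
Ighg1 hinge: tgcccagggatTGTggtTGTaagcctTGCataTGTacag
Ighg2b hinge: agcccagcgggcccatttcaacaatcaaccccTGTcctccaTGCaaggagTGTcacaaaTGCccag
Ighg2c hinge: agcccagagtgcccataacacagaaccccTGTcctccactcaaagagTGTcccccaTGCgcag
Ighg3 hinge: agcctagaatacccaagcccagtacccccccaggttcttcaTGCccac
The exon has 39, 66, 63 and 48 bases in that order, and 4, 4, 3 and 1 such triplets.

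Since the 3′ chemistry reads the end of a transcript, the last 120 coding bases of the secreted form show how well the reads of sister genes can be told apart. For the IgG genes these lie at chr12:113328979-113329098 (Ighg1), chr12:113306392-113306511 (Ighg2b), chr12:113287392-113287511 (Ighg2c) and chr12:113359668-113359787 (Ighg3). Capitals mark bases that differ from Ighg1.
Ighg1 end: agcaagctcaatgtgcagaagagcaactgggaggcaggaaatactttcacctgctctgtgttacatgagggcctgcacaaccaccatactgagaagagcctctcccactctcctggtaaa
Ighg2b end: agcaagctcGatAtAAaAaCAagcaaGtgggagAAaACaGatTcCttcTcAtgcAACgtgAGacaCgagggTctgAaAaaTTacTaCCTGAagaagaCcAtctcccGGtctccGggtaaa
Ighg2c end: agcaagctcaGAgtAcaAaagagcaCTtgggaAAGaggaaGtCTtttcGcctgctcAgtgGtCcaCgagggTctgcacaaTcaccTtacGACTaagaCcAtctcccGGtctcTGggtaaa
Ighg3 end: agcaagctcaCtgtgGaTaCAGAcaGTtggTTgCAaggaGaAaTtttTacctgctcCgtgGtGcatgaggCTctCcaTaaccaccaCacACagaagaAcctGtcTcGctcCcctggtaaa
Ighg2b differed from Ighg1 at 39 of the 120 bases, Ighg2c at 30 and Ighg3 at 32, so that these ends are distinct.

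Among the lambda genes, Iglc2 and Iglc3 are closer to each other than the IgG genes are to Ighg1. The last 120 coding bases of the lambda genes lie at chr16:19198539-19198658 (Iglc2), chr16:19065368-19065487 (Iglc3) and chr16:19061755-19061874 (Iglc1). Capitals mark bases that differ from Iglc2.
Iglc2 end: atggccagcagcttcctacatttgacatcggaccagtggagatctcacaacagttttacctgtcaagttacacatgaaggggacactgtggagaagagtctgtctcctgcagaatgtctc
Iglc3 end: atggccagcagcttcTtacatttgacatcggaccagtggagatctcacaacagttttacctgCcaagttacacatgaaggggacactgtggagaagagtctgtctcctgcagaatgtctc
Iglc1 end: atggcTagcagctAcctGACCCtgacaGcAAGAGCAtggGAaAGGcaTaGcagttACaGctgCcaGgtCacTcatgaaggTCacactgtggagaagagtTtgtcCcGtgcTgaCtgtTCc
Iglc3 differed from Iglc2 at 2 bases (98.3% identity), and Iglc1 from Iglc2 at 38. Over whole transcripts, no window of 90 bases of any of the 10 genes was found in a transcript of another. At 50 bases, 10.5% of the windows of Iglc2 were also in Iglc3, and 5.26% of those of Ighg2b were also in Ighg2c. The split of UMIs between Iglc2 and Iglc3 is therefore the least certain of the 10 where reads were short.

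The libraries held 96587 (WT), 107031 (KO) and 114357 (KO_PBS) barcodes with a median of 2261, 2980 and 1432 unique molecular identifiers (UMIs, 1 per captured transcript molecule). Their totals over the shared genes were 255925024, 351335206 and 177818671 UMIs. Levels are UMIs per 1000000 of those totals (CPM), with exact Poisson 95% intervals that cover counting error only. Since there was 1 library per group, no comparison has a replicate check and none has a p-value, and mouse, dissection and capture cannot be told apart from genotype or treatment. KO_PBS was counted on 31053 genes and the other two libraries on 32285. Aire, the targeted gene, had 15 UMIs in WT (0.0586 CPM), 27 in KO (0.0768 CPM) and 68 in KO_PBS (0.382 CPM). It was thus rare in all and highest in a library labelled knockout. The deleted part of the gene is not given in the sources used here, so these few UMIs cannot test the label. Groups are therefore named as the labels have them. The Y-linked gene Ddx3y was at 0.211 CPM in both WT and KO and at 5.97 CPM in KO_PBS, so KO_PBS also differed in its content of male RNA, which cannot be told apart from treatment. Summed markers of lens (428, 161 and 6735 CPM) and of blood (54.2, 211 and 1229 CPM, each in the order WT, KO, KO_PBS) differed between the libraries, and their part in the results was not tested. Corneal epithelium markers, which define most of this tissue, were present in each library (43973, 30453 and 17751 CPM summed). Between 2833 and 3379 barcode sequences were shared by any 2 libraries.

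The 10 constant genes together were close to absent in WT and took a sizeable part of all captured transcripts in KO. WT had 949 of their UMIs (3.71 CPM), KO had 7376426 (20995 CPM) and KO_PBS had 320782 (1804 CPM). These were 0.000371%, 2.10% and 0.180% of all UMIs. On the log2 scale the sum was 12.47 higher in KO than in WT (12.38 to 12.56) and 3.54 lower in KO_PBS than in KO (interval of the log2 ratio -3.55 to -3.54). KO_PBS was 8.93 above WT (8.83 to 9.02). The 3 libraries thus stood in the order WT, KO_PBS, KO, with intervals that did not touch. Fewer antibody-making cells and less antibody RNA per cell cannot be told apart in such sums.

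**Figure D1:**
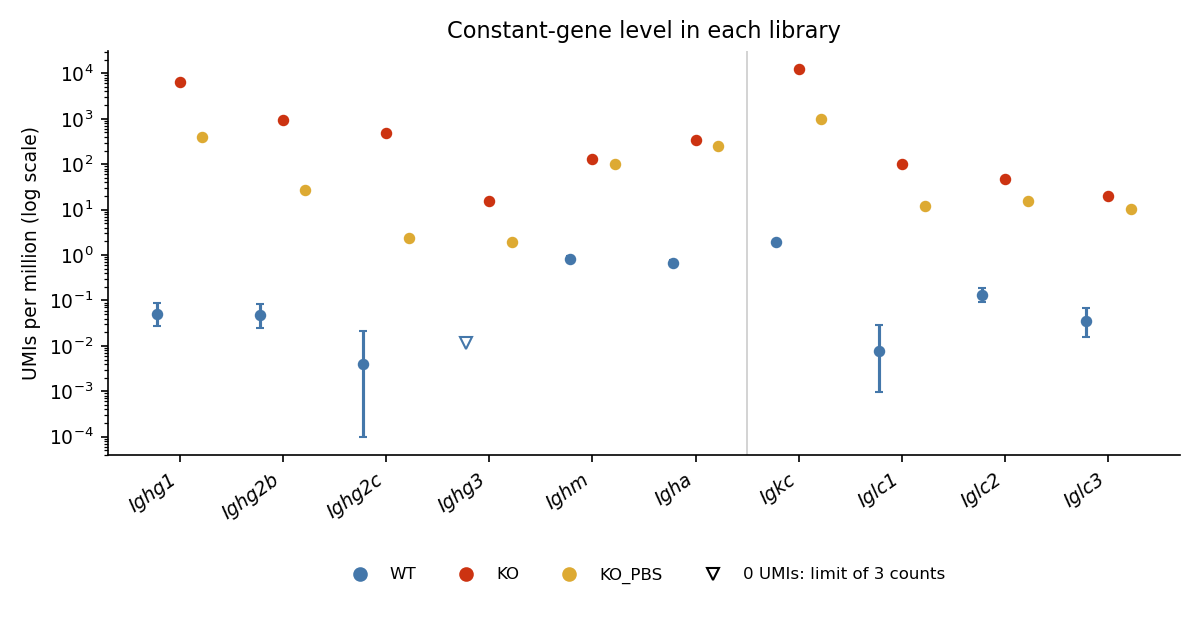
Level of each of the 10 constant genes in CPM (log scale) in WT, KO and KO_PBS. Points are 1 library each, bars are exact Poisson 95% intervals, and the open triangle marks a gene with 0 UMIs at the level that 3 counts would give. Every gene stands highest in KO, lowest in WT, and Ighm and Igha lie closest between KO and KO_PBS.

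The IgG genes were at or near the counting floor in WT. Ighg1, the constant gene of IgG1, had 13 UMIs in WT (0.0508 CPM), 2283577 in KO (6500 CPM) and 72476 in KO_PBS (408 CPM). Ighg2b had 12 UMIs in WT (0.0469 CPM), 328553 in KO (935 CPM) and 4695 in KO_PBS (26.4 CPM). Both were among the more abundant of the 10 genes in KO. Ighg2c, the IgG2 form of C57BL/6 mice, had 1 UMI in WT, 174773 in KO (497 CPM) and 427 in KO_PBS (2.40 CPM). Ighg3 had 0 UMIs in WT, where 3 counts would give 0.0117 CPM, with 5454 in KO (15.5 CPM) and 348 in KO_PBS (1.96 CPM). Ighg2c thus stood far above Ighg3 in KO and only just above it in KO_PBS. Ighg2a, the form of the IgG2 gene in some other strains, was not analysed here.

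The genes of unswitched IgM and of IgA behaved differently from the IgG genes. Ighm had 212 UMIs in WT (0.828 CPM), 45551 in KO (130 CPM) and 18002 in KO_PBS (101 CPM). Igha had 172 UMIs in WT (0.672 CPM), 120639 in KO (343 CPM) and 43765 in KO_PBS (246 CPM). These were the heavy-chain genes with the most UMIs in WT, and the only ones for which KO and KO_PBS were within 2-fold of each other. Ighd, which is made with Ighm by naive B cells, was at 0.0508 and 7.34 CPM in WT and KO, and highest in KO_PBS at 15.1 CPM. Ighe, the IgE gene, was barely detected, with 1, 20 and 17 UMIs.

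Among light chains, Igkc was the most abundant of all 10 genes in every library. It had 494 UMIs in WT (1.93 CPM), 4358215 in KO (12405 CPM) and 174485 in KO_PBS (981 CPM). Iglc1 had 2 UMIs in WT, 36281 in KO (103 CPM) and 2090 in KO_PBS (11.8 CPM). Iglc2 had 34 UMIs in WT (0.133 CPM), 16302 in KO (46.4 CPM) and 2700 in KO_PBS (15.2 CPM). The order of these lambda genes differed, with Iglc1 above Iglc2 in KO and below it in WT and KO_PBS. Iglc3 had 9 UMIs in WT (0.0352 CPM), 7081 in KO (20.2 CPM) and 1794 in KO_PBS (10.1 CPM). The fourth lambda gene, Iglc4, had at most 11 UMIs in a library.

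For a comparison of libraries gene by gene, a gene was called past 2-fold where the Poisson intervals were apart and the pair of libraries held at least 50 of its UMIs. Against WT, all 10 were called higher in KO, where 20.6% of 20252 genes tested were called higher and 8.63% lower. Their median log2 ratio was 11.51, and that of all genes tested was 0.24. Ighg1 was 127957-fold higher in KO (74827 to 240314), and Ighg2b 19944-fold. Igkc was 6426-fold higher (5884 to 7033), Igha 511-fold (440.0 to 597) and Ighm 157-fold (137 to 180.0). With 1 UMI of Ighg2c in WT, its ratio was 127311 with an interval from 22849.5 to 5028540, and with 2 UMIs of Iglc1 its ratio was 13214 (3658 to 109118). Ighg3 was at least 1324-fold higher, with its 0 UMIs in WT set to 3. In the 25% of barcodes with the fewest UMIs the log2 ratio was 15.33 for Ighg1 (16.97 over all barcodes) and 13.23 for Ighg2b (14.28). WT held 60 heavy-chain UMIs in those barcodes, 8.33% of them Ighg1 and 5% Ighg2b, so both ratios rest on few WT UMIs.

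Against KO, 7 of the 10 were called lower in KO_PBS and 3 were not called, where 4.7% of 22416 genes tested were called lower and 39.9% higher. The median log2 ratio of the 10 was -3.06, whereas that of all genes tested was 0.63, so that most genes had a larger part of the UMIs in KO_PBS. Ighg2c had the largest gap of the 10 and was 207-fold higher in KO than in KO_PBS (188 to 228). Ighg2b was 35.4-fold higher in KO (34.4 to 36.5), Ighg1 15.9-fold (15.8 to 16.1) and Ighg3 7.93-fold (7.12 to 8.87). The 4 IgG genes thus did not differ by a common factor, and their intervals did not overlap. Igkc was 12.6-fold higher in KO, between Ighg1 and Ighg3. Iglc1 was 8.79-fold higher in KO, Iglc2 3.06-fold and Iglc3 1.998-fold, the last just short of the threshold.

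Ighm was 1.28-fold higher in KO than in KO_PBS (1.26 to 1.30) and Igha 1.40-fold (1.38 to 1.41), and neither was called. The size of these gaps depended on the processing. As log2 ratios of KO_PBS over KO they were -0.357 (Ighm) and -0.480 (Igha). In the 25% of barcodes with the fewest UMIs they were -0.0565 and -0.152, and with median-of-ratios size factors -0.799 and -0.923. Taking the ratios relative to the median of all genes tested, 9 of the 10 were lower, where 12.9% of all genes tested then were, and Ighm, at -0.99, was just inside 2-fold. Ighd was 2.05-fold higher in KO_PBS than in KO (1.94 to 2.17). Against WT, all 10 genes were again higher in KO_PBS, where 57% of 22138 genes tested were called higher and 4.06% lower. The median log2 ratio of all genes was 1.27. The median of the 10 was 8.34. Igha was 366-fold and Ighm 122-fold higher in KO_PBS than in WT, Ighg1 8024-fold and Ighg3 at least 167-fold with the same floor. The 3 comparisons share libraries and are not independent of each other.

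**Figure D2:**
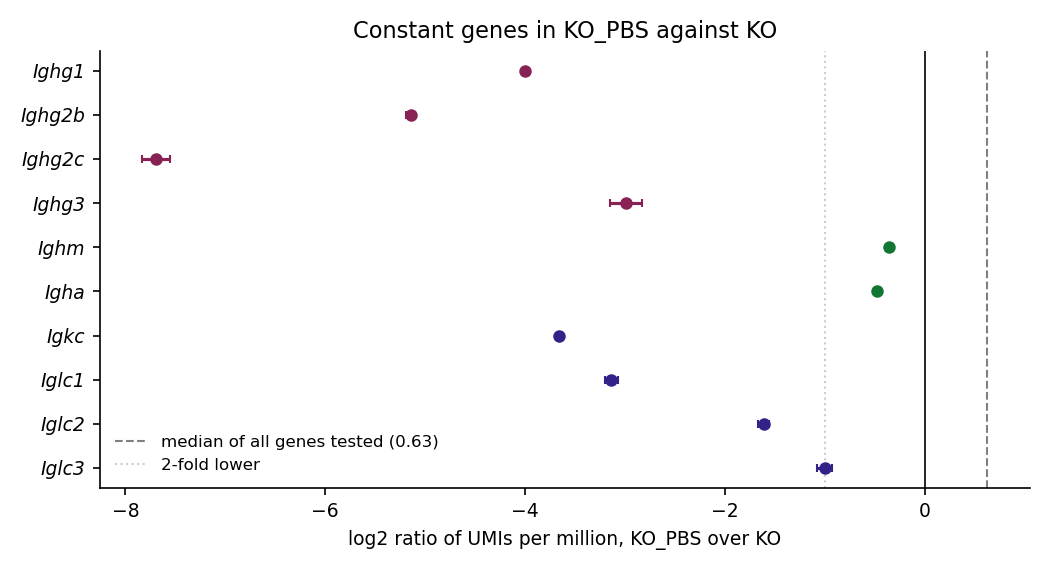
Log2 ratio of CPM in KO_PBS over KO for each of the 10 constant genes, with 95% counting intervals. The dotted line marks 2-fold lower and the dashed line the median of all genes tested (0.63). The IgG genes, Igkc and Iglc1 lie furthest to the left, Ighm and Igha lie between 2-fold lower and 0, and Iglc3 lies at the 2-fold line.

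The mix of heavy-chain genes also differed between the libraries. In WT, Ighm made up 51.7% of the 410 heavy-chain UMIs (46.8 to 56.6, Clopper-Pearson 95% interval) and Igha 42.0% (37.1 to 46.9). The 4 IgG genes together made up 6.34% (4.18 to 9.15). WT was thus a library of mu and alpha, with few IgG transcripts. In KO the IgG genes made up 94.4% of 2958547 heavy-chain UMIs, of which Ighg1 alone was 77.2%, Ighg2b 11.1%, Ighg2c 5.91% and Ighg3 0.184%. Igha was 4.08% and Ighm 1.54% of them. In KO_PBS the IgG genes made up 55.8% of 139713 heavy-chain UMIs, Igha 31.3% and Ighm 12.9%. Ighg1 was still the leading gene there at 51.9%, while Ighg2b was 3.36%, Ighg2c 0.306% and Ighg3 0.249%.

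Put as ratios, WT had 0.151 IgG UMIs per Igha UMI, KO had 23.1 and KO_PBS had 1.78. The ratio of Igha to Ighm was similar in both knockout libraries, at 2.65 in KO and 2.43 in KO_PBS, and was 0.811 in WT. Summed IgG was 7948 CPM in KO and 438 CPM in KO_PBS, whereas summed Ighm and Igha was 473 and 347 CPM. The gap between the knockout libraries thus lay mostly in the IgG genes and the light chains.

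The light-chain mix moved less. Igkc made up 91.7% of light-chain UMIs in WT (89.0 to 93.8), 98.6% in KO and 96.4% in KO_PBS. Lambda genes together were 8.35% in WT (6.15 to 11.0), 1.35% in KO and 3.64% in KO_PBS. Within lambda, Iglc2 had the largest part in WT (34 of 45 UMIs), and in KO Iglc1 had it (36281 of 59664). Light-chain UMIs per heavy-chain UMI were 1.31, 1.49 and 1.30 in WT, KO and KO_PBS, a similar balance in libraries of very unlike level.

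**Figure D3:**
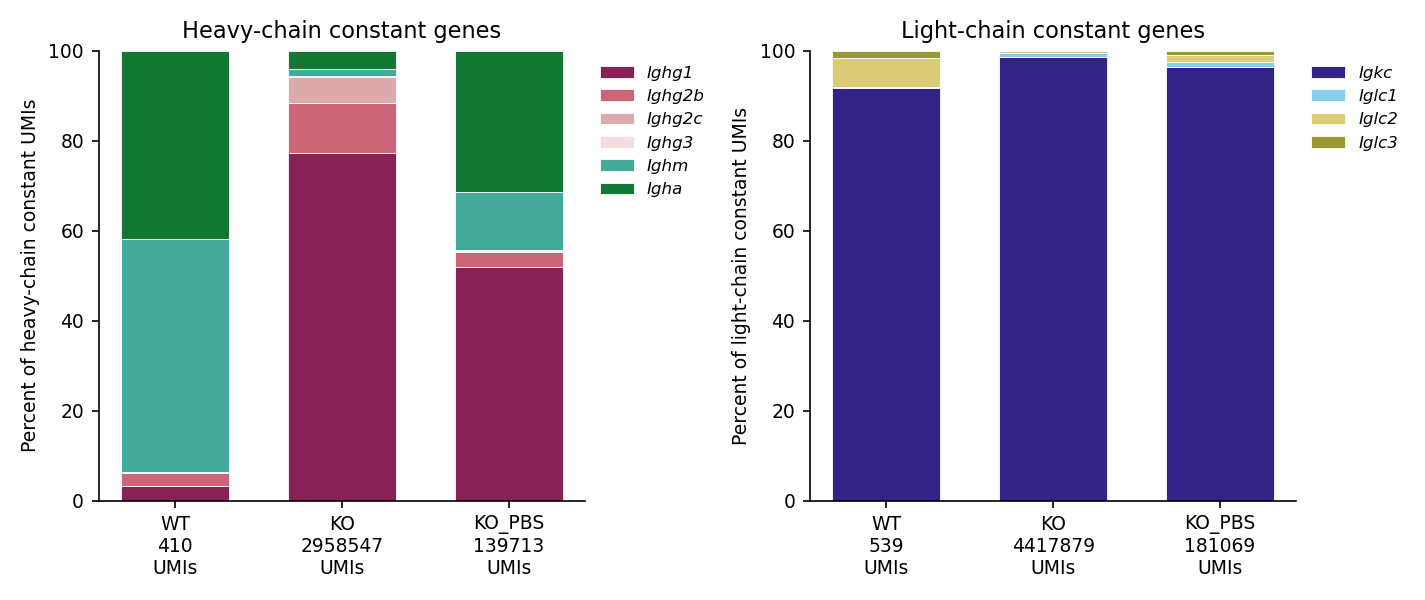
Share of each constant gene among heavy-chain UMIs (left) and among light-chain UMIs (right) in each library, in percent, with the number of UMIs under each bar. WT is mostly Ighm and Igha, KO is 94.4% IgG, and KO_PBS holds 55.8% IgG with 31.3% Igha.

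In KO these transcripts were found in nearly every barcode. A constant-gene UMI was present in 107029 of 107031 barcodes in KO (99.998%), in 104299 of 114357 in KO_PBS (91.2%) and in 644 of 96587 in WT (0.667%, 0.616 to 0.720). In the 25% of barcodes with the fewest UMIs the shares were 99.99%, 83.7% and 0.468%. In KO these had a median of 1994 UMIs and included 173 of its 1511 barcodes rich in constant-gene UMIs (defined below). They are thus not a reference for free RNA alone. Thinning each barcode to 1000 UMIs and leaving out shallower ones (226 in KO, 16860 in KO_PBS and 265 in WT) gave 99.9%, 82.5% and 0.298%. In KO the 1070 barcodes with the largest excess of corneal epithelium markers, cells that make no antibody, all held such a UMI (median depth 4532.5 UMIs), as did the 1070 with the largest excess of plasma cell markers (median depth 3845). In KO_PBS 90.2% of the epithelium-marker barcodes did (median depth 1590) and 91.2% of the plasma-marker ones (1333). Presence of a UMI was therefore about as common in epithelium-marker as in plasma-marker barcodes of both knockout libraries. It was not read as expression by that nucleus.

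The amount per barcode was more telling than presence. The constant genes took a median of 1.30% of a barcode's UMIs in KO, with 0.839% at the lower and 2.31% at the upper quartile, and 1% of barcodes above 11.2%. The highest barcode was at 35.9%. In KO_PBS the median was 0.168%, 1% of barcodes were above 0.591% and the highest was at 15.8%. In WT the highest barcode was at 1.27%. In KO 1% of barcodes were at or below 0.355%, a value above the KO_PBS median, and 2 KO barcodes held no such UMI.

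**Figure D4:**
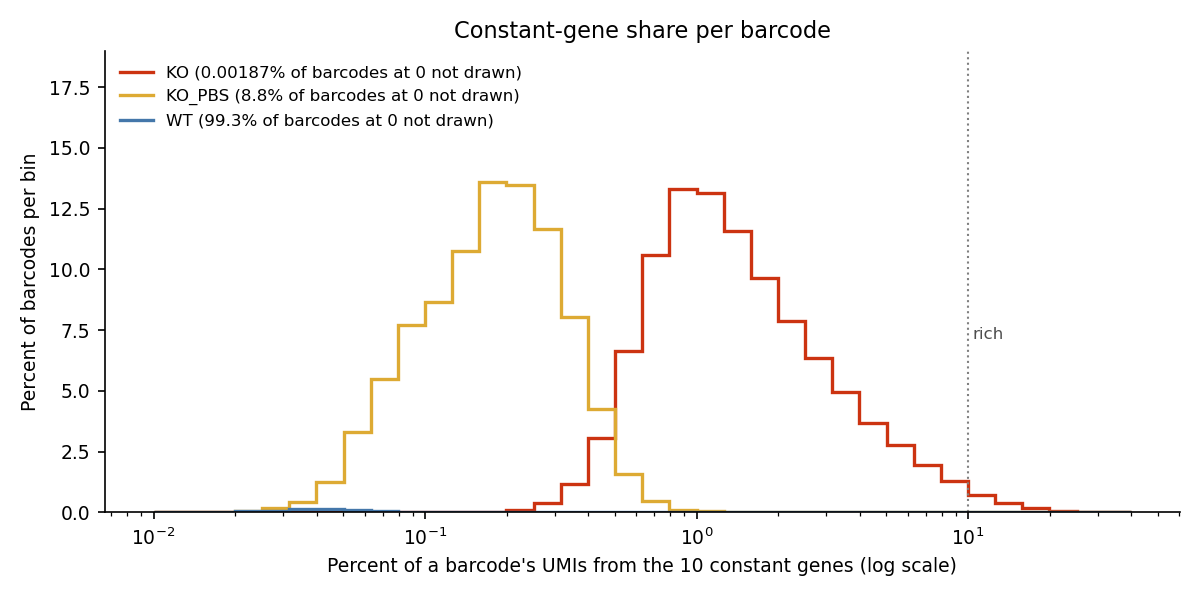
Distribution over barcodes of the percent of a barcode's UMIs that came from the 10 constant genes (log scale), in bins of equal width on that scale. KO is centred near its median of 1.30% with a tail past the dotted line at 10%, KO_PBS is centred near 0.168%, and 99.3% of WT barcodes are at 0 and not drawn.

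A barcode was called rich when at least 10% of its UMIs came from these genes. There were 1511 such barcodes in KO (1.41%), 2 in KO_PBS (0.00175%) and 0 in WT, which allows a share of up to 0.00311% (3 barcodes). The threshold cuts a continuous range: 1958 barcodes in KO and 7 in KO_PBS lay between 8% and 12%. The rich barcodes of KO held 11.0% of all constant-gene UMIs of that library, so that most of the signal lay outside them.

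When KO barcodes were ordered by their constant-gene share and split into 10 equal bins, the Ighg1 share stayed nearly the same, while the smaller shares moved more. Ighg1 made up 78.4% of heavy-chain UMIs in the lowest bin, where the constant genes took 0.487% of UMIs, and 77.6% in the highest, where they took 7.33%. The lowest share in any bin was 76.47%. Ighm went from 1.97% in the lowest to 1.06% in the highest bin, Igha from 4.65% to 3.14% and Ighg2b from 9.95% to 12.2%. Light-chain UMIs per heavy-chain UMI were 1.16 in the lowest and 1.66 in the highest bin. In KO_PBS, Ighg1 stayed between 50.1% and 52.4% over all 10 bins. These are sums over all barcodes of a bin and do not give the mix of single barcodes.

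Some barcodes did stand apart from that mix. A barcode was called led by a heavy-chain gene when it had at least 50 heavy-chain UMIs and at least 50% of them came from that gene, a definition chosen after the values had been seen. In KO, 13785 barcodes had enough UMIs and 13188 of them were led by 1 gene. Ighg1 led 11602, which says little since the library as a whole was 77.2% Ighg1. Ighg2b led 1004, Ighg2c 296, Igha 205, Ighm 75 and Ighg3 6, although none of these passed 12% of the library's heavy-chain UMIs. With a lead of at least 80% these were 288, 3, 52, 8 and 1 barcodes, and 9025 for Ighg1. In KO_PBS 15 barcodes were led, 8 of them by Igha, 5 by Ighg1 and 1 each by Ighg2b and Ighm. WT could have none, since no WT barcode reached even 20 heavy-chain UMIs.

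The leading gene is high in each set by definition, which also limits Ighg1 where another gene leads. In the sets led by Ighg2b, Ighm and Igha, Ighg1 was within 1.5-fold of its level in barcodes that were not led. Barcodes led by Ighg2b had 17594 CPM of Ighg2b against 639 in those not led, and 5685 CPM of Ighg1 against 4382. Barcodes led by Ighm had 13258 CPM of Ighm against 107, with 5168 CPM of Ighg1. Barcodes led by Igha had 12792 CPM of Igha against 289, with 4171 CPM of Ighg1. Other sets held more of a second gene. The 6 barcodes led by Ighg3 had 7333 CPM of Ighg1, and those led by Ighg1 had 1248 CPM of Ighg2b and 718 of Ighg2c. Barcodes led by Ighg2c had 11811 CPM of Ighg2c, 2746 CPM of Ighg2b and 197 CPM of Ighg3, where barcodes that were not led had 410, 639 and 12.5 CPM. In KO_PBS led barcodes were nearly pure, and all 15 that passed the UMI minimum also had a lead of at least 80%. In the 8 led by Igha the median share of the leading gene was 99.8%, where it was 70.4% in the Igha-led barcodes of KO. The cause of this difference was not tested. The KO_PBS barcode with the most constant-gene UMIs had 283 of Igha, 154 of Iglc2, 1 of Ighg1 and 2 of Igkc. The next had 130 of Ighg1 and 204 of Igkc, and another had 64 of Ighg2b and 140 of Igkc with no other heavy-chain UMI.

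**Figure D5:**
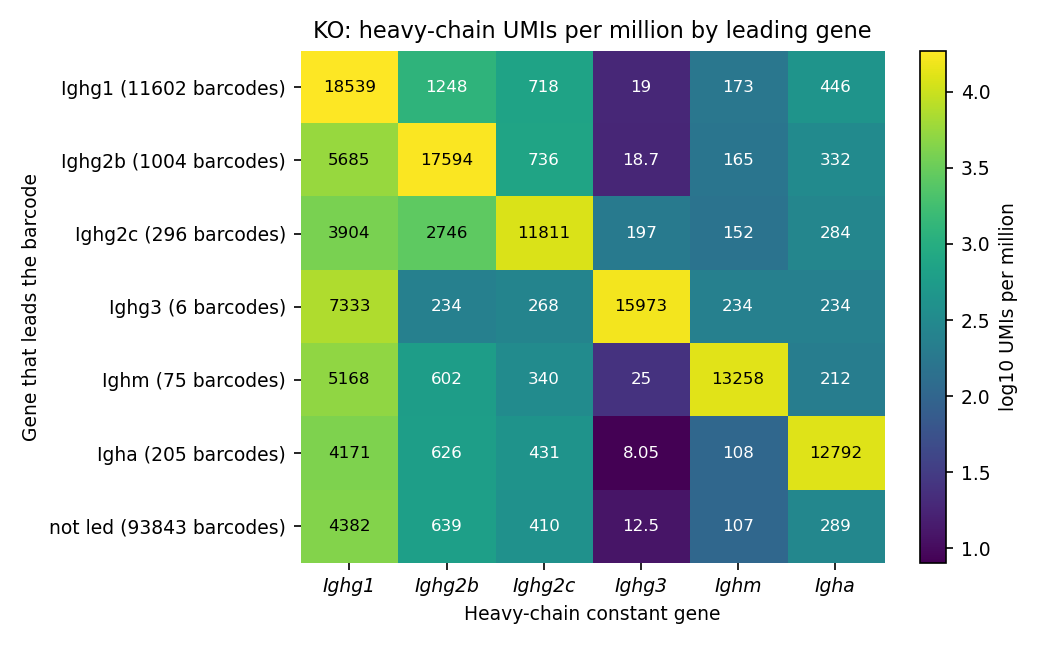
Level of each heavy-chain constant gene (columns, CPM, colour on a log10 scale) in KO barcodes led by each gene (rows, with the number of barcodes) and in barcodes that were not led. The diagonal is high by the definition of the rows, and off the diagonal Ighg1 lies between 3904 and 7333 CPM, against 4382 in the bottom row.

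The light chain of led barcodes was read within each set. Of the 203 Igha-led barcodes of KO in which 1 light-chain gene also led, 8 were led by a lambda gene (3.94%, 1.72 to 7.62). Of 11374 Ighg1-led ones, 30 were (0.264%, 0.178 to 0.376). The shares were 1.37% in Ighm-led (0.0347 to 7.40), 0.339% in Ighg2c-led (0.00858 to 1.87) and 0.202% in Ighg2b-led barcodes (0.0245 to 0.729). The intervals cover counting error only, and barcodes of 1 library are not replicates. Over all KO barcodes, Iglc1 led the light chain in 81, Iglc2 in 2 and Iglc3 in 0. The most UMIs in any KO barcode were 475 for Iglc1, 163 for Iglc2 and 13 for Iglc3, and in KO_PBS they were 20, 154 and 2. Iglc3 thus reached lower counts per barcode than Iglc1 and Iglc2 in both libraries.

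Jchain, which encodes the chain that joins IgA dimers and IgM pentamers, differed between the sets. It was at 6114 CPM in Igha-led, 3808 in Ighm-led and 3589 in Ighg2c-led barcodes of KO. Ighg1-led barcodes had 2257 CPM of Jchain and barcodes that were not led had 802 CPM. In KO_PBS it was at 5376 CPM in the Ighg2b-led barcode (10 UMIs) and 4175 CPM in the 8 led by Igha. It was at 658 CPM in the Ighm-led barcode (1 UMI) and 732 CPM in the 5 led by Ighg1. Levels in so few barcodes rest on few UMIs. The light-chain UMIs per heavy-chain UMI were also higher in Ighg2c-led (2.58) and Igha-led (2.33) than in Ighg1-led barcodes (1.51) of KO. In KO_PBS the order was the other way, with 0.783 in the 8 Igha-led and 1.08 in the 5 Ighg1-led barcodes. These groups came from a single library, so their order has no replicate check.

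WT held its few constant-gene UMIs in a different form. Of its 644 barcodes with any, 589 had exactly 1. The 21 barcodes with 5 or more held 276 of the 949 UMIs (29.1%), of which 221 were Igkc, 49 Igha and 1 Ighm. The barcode with the most had 42 Igkc, 2 Igha and 6 Jchain UMIs, and the next had 21 Igkc, 12 Igha and 20 Jchain. Igkc gave most of the UMIs in these barcodes, and 2 of the 10 with the most UMIs had no Igha. The 212 Ighm UMIs, in contrast, lay in 212 separate barcodes, 1 in each. The 13 Ighg1 and 12 Ighg2b UMIs of WT were also 1 per barcode. None of the 26 barcodes with an IgG UMI shared its sequence with a KO barcode. Over all WT barcodes only 2.93% did, so little can be read from none of 26.

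Barcodes with plasma cell markers carried the most constant-gene UMIs. In each library the 1% of barcodes with the largest excess of a marker list over what their depth gives was taken, a fixed number that says nothing about how many such cells there were. With the plasma cell list (10 genes, Jchain, Mzb1 and Xbp1 among them) the constant genes were at 117726 CPM in KO against 19716 in the other barcodes, and 544 of the 1070 were rich. The B cell list gave 27173 CPM, the blood list 23690, the macrophage list 22109 and the endothelium list 20792. The lens list gave 19228, the T cell list 18320, the keratocyte list 13951 and the corneal epithelium list 11106. The keratocyte and corneal epithelium lists share Aldh3a1, which gave 7158 of the 9809 CPM of the keratocyte sum in KO. Those sets are therefore not independent. In KO_PBS the plasma cell list gave 3505 CPM against 1787, and Igha made up 55.0% of heavy-chain UMIs in those barcodes, where it was 31.3% of the library. In WT it gave 46.8 CPM against 3.29, with 85% Igha. That share rests on few UMIs, since all WT barcodes together held 410 heavy-chain UMIs. With the B cell list, Ighm made up 19.1% of heavy-chain UMIs in KO_PBS and 1.63% in KO, and in WT the few heavy-chain UMIs of those barcodes were 100% Igha.

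Summed plasma cell markers reached 658 CPM in WT, 2073 in KO and 524 in KO_PBS, and summed B cell markers 17.5, 125 and 128 CPM. The B cell list had 9 of its 10 genes counted, since Ighd is an immunoglobulin gene. No gene of either list was at 0 UMIs in a library. Summed B cell markers were thus at like levels in KO and KO_PBS, while the plasma cell sum and the IgG genes were lower in KO_PBS. Single genes of the B cell list went both ways between KO and KO_PBS, so their sum does not stand for each of them. The part of B cells and plasma cells in the constant-gene levels was not tested. Sdc1, a surface proteoglycan that epithelium also makes, gave 519, 523 and 321 CPM of the plasma cell sum. Without it, an alternative chosen after seeing the data, the sum was 138 CPM (WT), 1549.7 CPM (KO) and 203 CPM (KO_PBS), so that KO_PBS stood above WT rather than below it.

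The 10 genes outside the immunoglobulin genes with the largest ratio of rich to other barcodes in KO included plasma cell and secretory genes, and others. Jchain was at 5156 CPM in rich and 994 CPM in other barcodes (5.15-fold, with 10 CPM added to both). Mzb1, an endoplasmic reticulum protein of plasma cells, was 4.69-fold higher. Fkbp11 (3.27-fold), Sec11c (3.23-fold), Prdx4 (3.07-fold) and Ssr4 (2.94-fold) act in folding or translocating secreted proteins, and Tent5c (3.42-fold) extends the poly(A) tails of such messages. Ly6c2, a surface protein of plasma cells and monocytes, was 4.10-fold higher. Slpi, a secreted protease inhibitor, led the list at 26700 against 3551 CPM (7.50-fold), and Gm30211, whose span contains Igkc, was 5.47-fold higher. Prdm1 and Sdc1, further plasma cell markers that epithelial cells also express, were 0.888 and 0.811 times the level of other barcodes. The constant-gene UMIs in the total lower the CPM of every other gene in rich barcodes, and their part in these 2 values was not tested. In KO_PBS, with 2 rich barcodes, 5 genes reached the 20 UMIs needed and none was above 1.10-fold. Jchain, with 15 UMIs, was short of that minimum but stood at 4608 CPM there and 67.0 CPM in the other barcodes.

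Likeness to Igkc was measured as the distance over the log2 ratios KO against WT and KO_PBS against KO, over 22828 genes and 3 libraries. The nearest outside the immunoglobulin genes was Jchain (distance 1.70), with 0.488 CPM in WT, 1062 in KO and 67.1 in KO_PBS. Saa3, an acute-phase serum amyloid, followed (1.98) with 0.653, 1228 and 58.4 CPM, then Mzb1 (2.40), Gm30211 (3.12) and Sprr1b (3.49), a cornified envelope gene.

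A list of 31 genes around antibody production and its effectors was read next to the constant genes. In KO against WT, 26 were called higher and 0 lower, where 20.6% and 8.63% of all genes tested were. Their median log2 ratio was 4.00, against 0.24 for all genes. In KO_PBS against KO, 9 were lower, 3 higher and 19 neither, where 4.7% of all genes were lower and 39.9% higher. Their median was -0.30, against 0.63 for all genes. The lower ones were Mzb1 (137 CPM in KO and 7.94 in KO_PBS), Derl3 (9.38 and 1.48), Tnfrsf17, the receptor for plasma cell survival factors (1.58 and 0.472), Fkbp11 and Xbp1, along with Jchain, Ung, Fcgr2b and Tnfsf13. Tnfsf13 overlaps a gene that was counted only for KO_PBS, so its value is uncertain. Those higher in KO_PBS included Pigr, which carries IgA across epithelium (4.80 CPM in KO and 9.73 in KO_PBS), and Fcgrt, the neonatal Fc receptor (24.5 and 60.0).

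Among the cytokines of the list, Il6 was at 0.0391, 0.894 and 1.56 CPM and Il10 at 0.164, 1.43 and 2.32 CPM (WT, KO, KO_PBS). Cxcl13, the B cell chemokine, had 0.473 CPM in WT, 55.6 in KO, 46.4 in KO_PBS. The survival factor BAFF (Tnfsf13b) was at 0.438, 3.55 and 4.07 CPM in the same order. Il21, a cytokine of follicular helper T cells, was at 0.0274, 0.575 and 0.467 CPM. None of these was called between KO and KO_PBS. Receptors that bind IgG stood high in both knockout libraries: the activating receptor Fcgr4 was at 0.152, 17.9 and 27.1 CPM, and the inhibitory receptor Fcgr2b at 1.23, 32.4 and 14.3 CPM. Immunoglobulin variable genes together were at 0.610, 1191 and 17.4 CPM.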

How the data were processed

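Values are the deposited UMI counts per gene and barcode. Per the submitters' processing notes they were made with Cell Ranger 7.0.1 on mm10, and the read length and annotation release are not given in the sources used here. Matrices were read as deposited, genes were matched by Ensembl ID over the 30406 shared genes, and 0 other columns were left out. Summed counts per library have exact Poisson, and shares Clopper-Pearson, 95% intervals. These cover counting error only. Calls set counts under 3 to 3. Printed folds do so only for counts of 0, and counts of 1 or 2 keep their observed ratio with its interval. Likeness used a pseudocount of 0.05 CPM. No barcode was removed, and doublets were not called: every barcode in the matrices entered. The genes, lists and definitions were chosen with earlier results of these data known. All 10 members are named. The other names are Ighd, Ighe and Iglc4, the 5 genes nearest Igkc, the 10 genes most raised in rich barcodes (at least 20 UMIs there), and genes of the antibody list, of which 1 is counted but not reported here by name. The definition of led barcodes, the bins and the marker-excess sets were added after the data were seen. On simulated counts for KO_PBS against KO (30406 genes), the rule of size recovered 100 of 100 genes raised 4-fold and 100 of 100 lowered 4-fold. It called 8 of 19225 unchanged genes. The simulated counts held counting error only, with no spread between mice or captures. They therefore do not give the share of false calls in the real comparison. Sequences came from GENCODE M21 transcripts. Intervals were computed with scipy 1.17.1 and sums with numpy 2.4.6 under Python 3.11.15, tables were handled with pandas 2.3.3, and plots drawn with matplotlib 3.10.9.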

Additional observations from a re-analysis of the deposited data

How the results depend on the processing

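No constant gene and no sum of them changed direction under any of the alternatives run. The log2 ratio of the summed constant genes was 12.21 (KO over WT), -3.98 (KO_PBS over KO) and 7.95 (KO_PBS over WT) with median-of-ratios size factors. It was 12.15, -3.08 and 9.07 in the 25% of barcodes with the fewest UMIs, and -3.57 for KO_PBS over KO without immunoglobulin genes in the total. In the low-UMI barcodes the KO over WT ratios of Ighg1 (log2 15.33), Ighg2b (13.23) and Iglc2 (7.18) were smaller by more than 1.5 times. Their KO_PBS over WT log2 ratios were also smaller (11.85, 8.40 and 5.71, against 12.97, 9.14 and 6.84 over all barcodes). Those of Ighm, Igha and Igkc over WT were larger in KO_PBS. Ighg2c, Ighg3, Iglc1 and Iglc3 have at most 1 UMI in WT there, too few for a ratio.

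The share of Ighg1 among heavy-chain UMIs was 8.33% (WT), 77.1% (KO) and 54.1% (KO_PBS) in those low-UMI barcodes. The WT value is a share of 60 UMIs, with an interval of 2.76 to 18.4. In rich barcodes it was 78.4% in KO and 0% in KO_PBS, where 2 barcodes are rich, and with barcodes of at least 20 heavy-chain UMIs weighted equally it was 76.4% and 34.0%. KO_PBS has 49 such barcodes, so this last value rests on few. The share of Igkc among light-chain UMIs was 86.7%, 98.7% and 96.7% in low-UMI barcodes (WT, KO, KO_PBS). It was 98.8% and 99.1% in rich barcodes of KO and KO_PBS. With equal weights it was 97.0%, 98.6% and 95.3% (WT, KO, KO_PBS). The equal-weight value rests on 3 barcodes in WT and on 63 in KO_PBS.

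Barcodes with at least 2 constant-gene UMIs were 0.0569% in WT and 72.1% in KO_PBS. Those with at least 5 were 0.0217% (WT), 99.87% (KO) and 16.3% (KO_PBS). Thinned to 1000 UMIs, the shares with any were 0.298%, 99.95% and 82.5%, and with at least 500 genes and at most 5% mitochondrial UMIs KO_PBS had 91.7%. Rich barcodes at a threshold of 5% were 7.44% in KO and 0.0131% in KO_PBS, at 20% they were 0.0934% and 0%, and after thinning 1.49% in KO.

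Without a UMI minimum, 2872 genes were called lower in KO against WT (1748 with it). Relative to the median, 2891 genes were lower in KO_PBS against KO (1053 before), and 6558 were higher (12609) and 5106 lower (899) in KO_PBS against WT. Led barcodes, a definition chosen after seeing the data, numbered 43835 in KO and 49 in KO_PBS with at least 20 heavy-chain UMIs, and 3732 and 4 with at least 100. The cause of these shifts was not tested, except that each threshold sets how many barcodes or genes can pass.

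No paired analysis was possible because each group has 1 library, which also leaves no replicate to leave out. With 13 or fewer UMIs for each IgG gene in WT, the ratios against WT are limited by counting, and with 1 library per group no interval holds the spread between mice. KO_PBS was counted on another gene list and had more lens and blood RNA and the fewest UMIs per barcode. Constant-gene UMIs lay in nearly all KO barcodes, low-UMI ones too, so a UMI does not assign the transcript to that nucleus.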
